A study of Mus musculus with 40 samples.

Results

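Between day 3 and day 6 of induced differentiation, cultured white preadipocytes lacking HMGN1 and HMGN2 (DKO) pass from the first medium into the second, and lipid-filled adipocytes form. The step was followed through the H3K27ac peak lists of 3 DKO libraries of day 3 and 3 DKO libraries of day 6, out of 24 lists in the series. The peaks of the 6 lists were merged wherever they overlapped by at least 1 bp, which gave 113438 regions. A region was called gained where all 3 day 6 lists and none of the 3 day 3 lists held a peak in it (3025 regions, 2.67% of all merged regions). A region was called lost where the reverse held (4169 regions, 3.68%) and kept where all 6 lists held a peak (24954 regions, 22.0%). The remaining 81290 regions were called in some other combination of libraries. These classes restate the calls of the 6 lists and carry no test of their own.

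The series followed preadipocytes from inguinal white fat of C57BL/6 mice aged 8 to 12 weeks, either wild type (WT) or carrying Hmgn1-/- and Hmgn2-/-, at days 0, 3, 6 and 9, with 3 H3K27ac libraries for each genotype and day. The cells of both genotypes received insulin, dexamethasone, IBMX, T3 and rosiglitazone for 4 days, and then insulin and T3 alone for 4 days. The sample notes start this 2 days after confluence, whereas the paper's preadipocyte methods start it at confluence. Day 3 thus lay within the first medium and day 6 within the second, so the passage of time and the removal of dexamethasone, IBMX and rosiglitazone cannot be told apart. The null alleles were in the germ line of the mice, so every cell of a DKO culture lacked both genes. Whether libraries of a group came from separate animals or cultures is not given in the labels, so p-values measure the spread between these libraries.

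Acetylation of lysine 27 of histone H3 is placed by p300 and CBP at active enhancers and promoters, and it is lost when these elements fall silent. In adipogenesis, glucocorticoid and cAMP signals first act on preadipocytes through C/EBP and AP-1 factors, after which PPARγ and C/EBPα occupy the enhancers of genes for lipid storage, fatty acid uptake and adipokines. Preadipocytes in turn make fibrillar collagens, growth factor receptors and Wnt and TGF-β pathway proteins. HMGN1 and HMGN2 are nucleosome-binding proteins found at regulatory chromatin.

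Hmgn2 had no peak in any of the 6 DKO libraries, against 1.40 to 1.80 kb under peaks in the WT libraries of the same days. Hmgn1 kept peaks in DKO cells, with 1.14 to 1.68 kb at day 3 and 0.875 to 1.41 kb at day 6, against 1.44 to 2.19 kb in WT cells. A peak near a deleted gene does not show whether the gene is transcribed, so the Hmgn1 value does not check the label. Depth, read from the background of the deposited peak scores, was 9.1 to 11.4 reads per kb in the 6 DKO libraries. The WT day 3 replicate 3 library was the shallowest of the series at 4.50 reads per kb. The DKO day 6 replicate 3 library stood apart from the others of its group, with 47448 peaks against 74867 and 71869, although its background depth was the highest of the 6. Values without it are given where they change a result.

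The 9 windows below were chosen to show what a gained and a lost region look like in sequence: gained regions at genes of the adipocyte, and lost regions at genes of blood cell signalling, matrix and the cell cycle. Each shows 100 bp on either side of the strongest summit, on the + strand of GRCm38 (mm10), with matches to any of the searched motifs in capitals.

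Adipoq (gained), chr16:23147029-23147229: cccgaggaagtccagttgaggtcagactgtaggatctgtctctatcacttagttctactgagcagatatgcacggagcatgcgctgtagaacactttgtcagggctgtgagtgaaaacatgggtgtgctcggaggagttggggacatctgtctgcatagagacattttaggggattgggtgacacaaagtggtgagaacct
Plin1 and Pex11a (gained), chr7:79739919-79740119: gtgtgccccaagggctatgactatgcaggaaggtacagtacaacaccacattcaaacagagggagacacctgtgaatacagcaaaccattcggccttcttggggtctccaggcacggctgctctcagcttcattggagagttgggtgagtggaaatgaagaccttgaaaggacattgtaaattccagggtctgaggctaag
Cidec (gained), chr6:113436031-113436231: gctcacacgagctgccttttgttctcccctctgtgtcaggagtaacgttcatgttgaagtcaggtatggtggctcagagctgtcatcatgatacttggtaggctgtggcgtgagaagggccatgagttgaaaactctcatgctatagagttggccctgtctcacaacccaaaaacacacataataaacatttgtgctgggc
Pparg (gained), chr6:115422769-115422969: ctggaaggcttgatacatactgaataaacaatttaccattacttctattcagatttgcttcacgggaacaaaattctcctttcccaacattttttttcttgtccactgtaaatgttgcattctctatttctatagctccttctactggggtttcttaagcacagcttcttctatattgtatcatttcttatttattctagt
Ptpn6 (lost), chr6:124729729-124729929: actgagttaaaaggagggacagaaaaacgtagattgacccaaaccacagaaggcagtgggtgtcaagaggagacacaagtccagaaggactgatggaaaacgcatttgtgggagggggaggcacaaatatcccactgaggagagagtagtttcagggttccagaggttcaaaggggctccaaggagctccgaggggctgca
Col28a1 (lost), chr6:8162695-8162895: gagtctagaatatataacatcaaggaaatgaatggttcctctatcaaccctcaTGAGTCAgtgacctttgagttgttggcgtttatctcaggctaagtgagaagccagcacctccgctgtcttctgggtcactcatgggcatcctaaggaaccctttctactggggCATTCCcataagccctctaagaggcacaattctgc
Col1a1 (lost), chr11:94943908-94944108: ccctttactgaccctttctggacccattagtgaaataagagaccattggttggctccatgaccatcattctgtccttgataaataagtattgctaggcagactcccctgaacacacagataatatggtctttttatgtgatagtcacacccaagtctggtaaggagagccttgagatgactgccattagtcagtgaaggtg
Ccnd1 (lost), chr7:144940131-144940331: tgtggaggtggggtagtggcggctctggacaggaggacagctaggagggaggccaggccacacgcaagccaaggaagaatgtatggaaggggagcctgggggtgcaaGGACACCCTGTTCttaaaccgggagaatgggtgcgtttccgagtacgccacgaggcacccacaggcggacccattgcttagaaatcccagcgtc
Timp1 (lost), chrX:20869834-20870034: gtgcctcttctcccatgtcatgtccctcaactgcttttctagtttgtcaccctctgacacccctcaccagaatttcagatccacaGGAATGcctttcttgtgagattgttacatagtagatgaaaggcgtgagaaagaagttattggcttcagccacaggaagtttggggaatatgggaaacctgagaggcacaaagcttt

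The Adipoq window lay 483 bp from an annotated start of the gene, the Cidec window 371 bp and the Pparg window 803 bp from the start of a transcript that begins downstream within the gene. The Plin1 and Pex11a window lay 337 bp from a start of Pex11a and 7116 bp from the nearest start of Plin1. Of the lost windows, those of Ccnd1, Timp1 and Ptpn6 lay 306, 232 and 1121 bp from a start, whereas those of Col1a1 and Col28a1 lay inside the gene. The capitals mark TGANTCA, the AP-1 site, and GGAATG, the TEAD site (CATTCC on the other strand), in the Col28a1 window. They mark GGAATG in the Timp1 window and a steroid receptor site, an inverted repeat of GNACA with 3 bases between, in the Ccnd1 window. Matches were sought on both strands in windows of 201 bp, and none of these 3 patterns contains another. Across all 113438 merged regions, 5.13% of such windows held the AP-1 letters, 11.2% the TEAD letters and 0.394% the steroid receptor letters. The 4 gained windows shown held none of the searched letters, but the windows were picked and do not compare the classes. The window of the gained Miga2 region, not shown, held the TEAD letters. Over all gained and all lost regions the TEAD letters stood in 11.5% and 11.7%. The AP-1 letters stood in 5.92% and 5.18% and the steroid receptor letters in 0.529% and 0.336%.

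Gained and lost regions lay mostly away from promoters, unlike kept regions but like the regions called in some other combination of libraries. Of the gained regions 17.1% lay within 1 kb of a transcript start and of the lost regions 17.5%, against 63.9% of the kept and 28.3% of all merged regions. The 81290 regions of other combinations had 18.3%, so the low share was not particular to the gained and lost classes. Introns held 41.9% of the gained and 39.2% of the lost regions, and intergenic sequence 32.2% and 37.9%. Gained regions were also narrower than kept ones, with median widths of 566 bp (gained), 461 bp (lost) and 994 bp (kept). Their peaks were weaker, with a median −log10 q of 8.86 at day 6 against 18.1 for the kept regions of that day. The rule itself bears on both: a kept region merges peaks of 6 lists and passes in each, a gained or lost region those of 3. The part of the rule in these differences was not tested. Of the regions just outside the rule, the 1433 regions called in 1 of 3 day 3 and 3 of 3 day 6 libraries had a median −log10 q of 9.01 at day 6 and a width of 581 bp, and the 5258 regions called in 0 and 2 libraries had 5.05 and 338 bp. On the lost side, 4321 regions called in 3 day 3 and 1 day 6 libraries had 7.95 at day 3 and 7219 called in 2 and 0 had 4.71, against 7.04 for the lost regions. The promoter shares of these regions were 23.1% (1 and 3 libraries) and 16.3% (0 and 2). On the lost side they were 23.8% (3 and 1) and 15.7% (2 and 0).

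**Figure D1:**
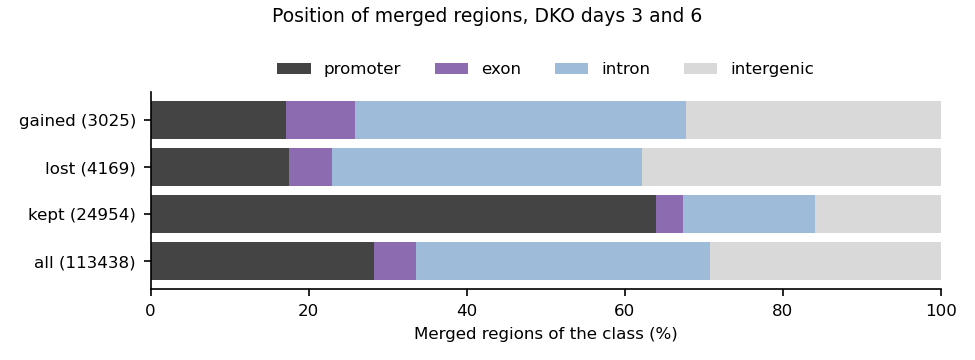
Share of merged regions (x axis, percent) within 1 kb of a transcript start (promoter), in other exons, in introns and between genes, for all merged regions and the kept, lost and gained classes, with the number of regions in brackets. Promoters make up 63.9% of kept regions but 17.1% of gained and 17.5% of lost regions. The regions in none of these classes, not shown alone, have 18.3%.

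The AP-1 and C/EBP letters were about as frequent in both classes as elsewhere. Among regions away from promoters, 5.98% of the gained and 5.41% of the lost regions held the AP-1 letters, against 5.80% of all such regions. The C/EBP letters TTGCNNAA stood in 7.42% of the gained, 7.10% of the lost and 7.52% of all regions away from promoters. The PPAR/RXR site, a direct repeat of AGGTCA with 1 base between, was rare, with 4 of 3025 gained regions (0.132%), 4 of 4169 lost regions (0.096%) and 46 of all 113438 (0.0406%). The EBF letters stood in 0.364% of the gained, 0.5997% of the lost and 0.637% of all regions. Among the 20000 strongest peaks of each library, AP-1 letters stood in 3.20%, 3.50% and 3.08% of day 3 and 3.66%, 3.53% and 3.58% of day 6 windows. All 3 day 6 values were above the day 3 values, at an exact permutation p of 0.1, the smallest 3 against 3 libraries allow (two-sided, 0.35 after Benjamini-Hochberg adjustment over the 7 motifs).

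The number of peaks did not differ between the days beyond the spread of the libraries. The day 3 lists held 64777, 82585 and 69105 peaks (72156 ± 9288, SD, n = 3) and the day 6 lists 74867, 71869 and 47448 (64728 ± 15040, SD, n = 3), an overlap of both groups (exact permutation test, two-sided, p = 0.6). Peaks covered 34.9 ± 6.19 Mb at day 3 and 30.8 ± 8.76 Mb at day 6 (SD, n = 3, exact permutation p = 0.6). Without DKO day 6 replicate 3 the day 6 mean was 0.916 Mb above that of day 3. The shared share of covered bases (Jaccard index) was 0.561 to 0.587 between libraries of day 3 and 0.489 to 0.587 between libraries of day 6. Between days it was 0.368 to 0.475. The index falls when lists differ in size as well as in place. Its lowest value paired the longest list (DKO day 3 replicate 2, 41.8 Mb) with the shortest (DKO day 6 replicate 3, 20.7 Mb). These 2 lists shared 16.8 Mb, and the part of size was not tested.

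**Figure D2:**
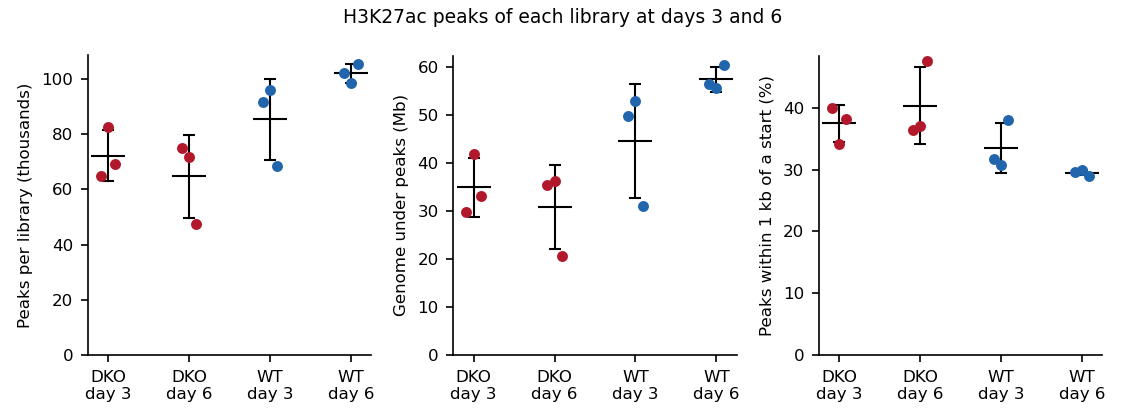
Number of peaks per library, genome under peaks (Mb) and percent of peaks at promoters for the DKO (red) and WT (blue) libraries of days 3 and 6. Points are libraries, and bars the mean and SD of 3. One DKO day 6 library, with 47448 peaks, lies below the rest of its group.

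The WT libraries and the libraries of days 0 and 9 took no part in the rule, so they show where the regions stood outside the step. The gained regions were absent from most early libraries and present in most late ones of both genotypes. They were called at a mean of 13.3% in WT day 0 and 16.01% in DKO day 0 libraries, at 90.4 ± 1.94% in WT day 6 and at 95.5 ± 0.73% in DKO day 9 libraries (SD, n = 3). In WT libraries the share was 23.2%, 26.3% and 9.75% at day 3 and 89.8%, 88.9% and 92.6% at day 6. The lowest day 3 value belongs to the shallow library, and the groups were far apart without it too. The rise of 70.68 percentage points had an exact permutation p of 0.1, the smallest possible, whereas over all merged regions the WT share went from 57.3% to 68.0%. Of the 3025 gained regions 1480 (48.9%) also met the gained rule in WT cells. Another 181 were already called in all 3 WT day 3 libraries, among them 2 regions of Pparg and 1 of Acaca, and 67 were in no WT day 6 library.

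The lost regions were called outside the step at shares nearer to those of all merged regions. They were called in 75.6% (WT) and 78.9% (DKO) of day 0 libraries on average, but also in 62.7 ± 3.10% of WT day 6 and 63.7 ± 2.57% of DKO day 9 libraries (SD, n = 3). Over all merged regions these means were 57.1% and 61.1% at day 0, 68.0% at WT day 6 and 70.8% at DKO day 9, so the lost regions were above the background at day 0 and below it at WT day 6 and DKO day 9. DKO day 0 replicate 2, with its broad peaks, had the highest DKO day 0 shares, 83.5% of the lost and 67.5% of all merged regions. In WT libraries the share was 85.5%, 87.7% and 54.8% at day 3 and 61.5%, 60.3% and 66.2% at day 6. The groups overlapped through the shallow library, and the change of −13.35 percentage points had an exact permutation p of 0.4. Of the 4169 lost regions 229 met the lost rule in WT cells, 1318 (31.6%) were called in all 6 WT libraries of both days, and 2006 (48.1%) were called again in all 3 DKO day 9 libraries. A further 888 (21.3%) were in no DKO day 9 library, and 512 regions were in neither a WT day 6 nor a DKO day 9 library. DKO day 9 lists held 111219 to 115923 peaks, more than those of day 6, and the part of this difference in the return of regions was not tested. By the same rule WT cells gained 6301 (4.46%) and lost 1150 (0.814%) of 141221 merged regions, with a shallow library among those of day 3.

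**Figure D3:**
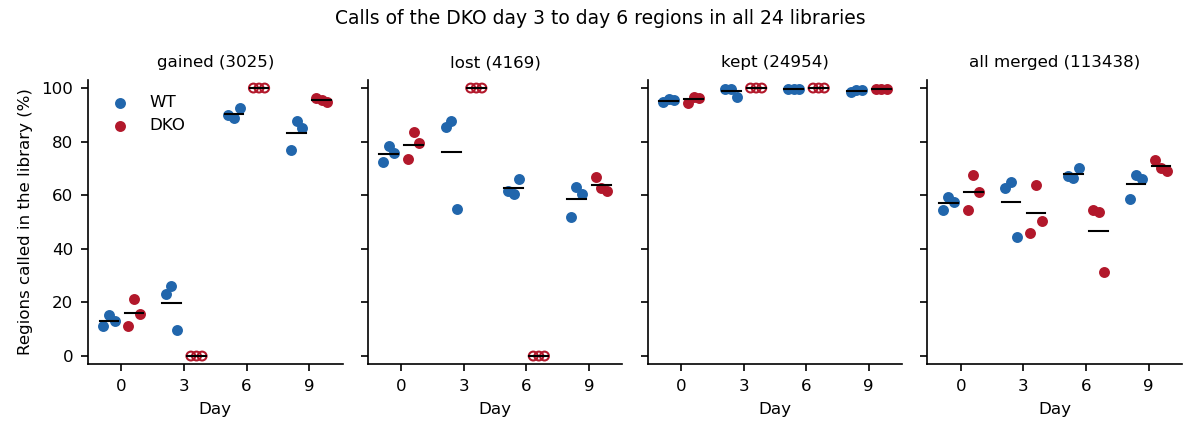
Share of the gained, lost, kept and all merged regions (percent, y axis) that held a peak in each of the 24 libraries, by day (x axis) and genotype (WT blue, DKO red). Points are libraries, lines are means, and open points are the 6 libraries that set the classes. Gained regions are called in 13.3% to 19.8% of WT libraries on average before day 6 and in 90.4% at day 6, while lost regions are called in 62.7% and all merged regions in 68.0% at WT day 6.

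The strongest gained regions lay at or near genes of varied function. Ranked by the median −log10 q of the 3 day 6 lists, the first was intergenic (chr9:31261392-31262271, 18.3 kb from Prdm10), with 42.4. The next stood in the window of Miga2, a mitochondrial outer membrane protein (chr2:30379547-30381541, 41.6), of Mpc1, a subunit of the mitochondrial pyruvate carrier (chr17:8297623-8299585, 40.5), and of Nap1l4, a histone chaperone (chr7:143535082-143536338, 40.3). The fifth overlapped Pex11a, a peroxisome division factor, and stood in the window of Plin1 too (chr7:79737868-79740367, 39.6), and its sequence is printed above. It had fold enrichments over background of 18.4, 14.4 and 10.1 in the 3 day 6 libraries. All 5 were called in 3 of 3 WT day 6 and 3 of 3 DKO day 9 libraries and in no DKO day 0 library.

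The strongest lost regions had median −log10 q values of 20.8 to 22.6 at day 3, against a median of 19.5 for the kept regions of that day. They lay in an intron of Babam2, a BRCA1 complex subunit (chr5:31846126-31846979), near an internal start of Ptpn6, the SHP-1 phosphatase of blood cells (chr6:124729671-124729947), and in introns of Iqgap2, a scaffold protein (chr13:95794602-95795092), and of Cerk, ceramide kinase (chr15:86182723-86183290). The fifth overlapped an exon of Col28a1, a collagen (chr6:8162108-8163129), with fold enrichments of 8.24, 10.1 and 10.4. All 5 were called in every DKO day 0 and WT day 3 library. At WT day 6 the regions of Babam2, Ptpn6, Iqgap2 and Col28a1 were called in 3 of 3 libraries and that of Cerk in 2. At DKO day 9 the Ptpn6 region was called in 1 library, the Cerk region in 2 and the others in 3.

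Genes were compared by the length of peaks within each gene and 5 kb upstream of it, in kb, which was fitted on the scale log2(kb + 0.5). Because this scale adds 0.5 kb, it understates the change of genes with short peaks, and genes at 0 on one day are given without a fold. The same libraries set the region classes, so a gained region and a rise in kb at a gene are not separate evidence. Of 11349 protein-coding genes tested, 504 rose (4.44%) and 571 fell (5.03%) from day 3 to day 6 (limma, Benjamini-Hochberg adjusted p under 0.05), with a median log2 change of −0.06. At least 1 gained region lay at 1305 of the 14220 genes with any region (9.18%) and at least 1 lost region at 1849 (13.0%). In bulk libraries such as these, a smaller number of cells of a type and less acetylation per cell cannot be told apart.

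Genes of the lipid droplet and of lipolysis had the highest median change of the 14 lists. Of 17 members 14 were tested, 12 rose and none fell (85.7% against 4.44% of all genes), with a median log2 change of 1.78 against −0.06 over all genes. Without DKO day 6 replicate 3 all 14 rose, and over the omissions of single libraries 9 to 14 did, but with only 250 bp either side of each summit 5 of 15 rose. Together 11 members held 33 gained regions and none held a lost one. Plin1, the perilipin that coats the adipocyte droplet, had 0, 1.02 and 0.394 kb under peaks at day 3 and 11.8, 11.2 and 9.99 kb at day 6 (log2 change 3.70 ± 0.35, SE, limma adjusted p = 0.00073). Its 8 gained regions included 1 at its own start and the one shared with Pex11a. Cidec, which fuses droplets, went from 0, 0.254 and 0.166 kb to 8.04, 8.08 and 5.11 kb (3.56 ± 0.23, adjusted p = 0.000161). The groups did not overlap for either gene, as held for 1129 genes with higher values at day 6 (9.95% of those tested).

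The lipases and their partners followed. Adrb3, the β3-adrenergic receptor, had a peak in 1 of 3 day 3 libraries (0, 0.409 and 0 kb) and 4.09, 3.51 and 2.67 kb at day 6 (2.67 ± 0.26, adjusted p = 0.000822). Mgll, monoglyceride lipase, had 1.178, 3.67 and 1.998 kb and then 14.9, 18.3 and 8.97 kb (2.43 ± 0.37, adjusted p = 0.00512). Aqp7, the glycerol channel, had no peak at day 3 and 1.97, 1.91 and 0.898 kb at day 6. Smaller rises of Lipe, hormone-sensitive lipase (1.21 ± 0.24), and Pnpla2, adipose triglyceride lipase (1.54 ± 0.21), came with 7.65 kb or more in every day 6 library. Bscl2, seipin (0.54 ± 0.18), and Abhd5, the co-activator of Pnpla2 (0.59), did not pass the test.

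Fatty acid uptake and synthesis showed the same direction. Of 8 uptake and binding genes tested, 5 rose and none fell (62.5% against 4.44% of all genes, median 1.23). Of 15 synthesis genes 10 rose and none fell (66.7%, median 1.25). Without DKO day 6 replicate 3 the synthesis count was 13, and it was 6 without DKO day 3 replicate 1 or 3 or DKO day 6 replicate 1 or 2. With only 250 bp either side of each summit, 2 uptake and 4 synthesis genes rose. Cd36, the fatty acid translocase, had 1.31, 1.46 and 1.15 kb at day 3 and 22.9, 21.1 and 15.9 kb at day 6 (3.49 ± 0.22, adjusted p = 0.000161). Acsl1, acyl-CoA synthetase, had 1.49, 2.28 and 1.37 kb and then 15.6, 15.9 and 8.30 kb (2.60 ± 0.29, adjusted p = 0.00145), with 7 gained regions. Agpat2, which makes phosphatidic acid for triglycerides, had 0.489, 1.31 and 0.578 kb and then 10.1, 10.6 and 7.61 kb (2.98 ± 0.26, adjusted p = 0.000466). In each of these the lowest day 6 library exceeded the highest day 3 library several times over. Acaca, acetyl-CoA carboxylase (1.62 ± 0.25, 6 gained regions), Lpin1, phosphatidate phosphatase (1.77 ± 0.25), Thrsp, an inducer of lipogenesis (2.37 ± 0.27), Fabp4, the adipocyte fatty acid binding protein (1.68 ± 0.26), and Lpl, lipoprotein lipase (1.12 ± 0.28), rose too. The call of Lpl was lost without DKO day 3 replicate 1 or 3 or DKO day 6 replicate 1 or 2 (highest adjusted p = 0.168). The elongases Elovl5 (−0.61) and Elovl6 (−0.53) did not pass the test.

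Of 13 tested genes of adipokines and the insulin response, 8 rose and none fell (61.5% against 4.44% of all genes, median 1.2). The count was 12 without DKO day 6 replicate 3, 5 without DKO day 3 replicate 1 or 3, and 5 with only 250 bp either side of each summit. Adipoq, adiponectin, had no peak in any day 3 library and 6.21, 5.30 and 4.11 kb at day 6 (adjusted p = 9.6e-05). Each of its 4 gained regions, which run from 2.28 kb upstream into an intron, was absent from every library of day 0 and of WT day 3 and present in every library of WT day 6 and of day 9. Slc2a4, the insulin-responsive glucose transporter GLUT4, also went from no peak to 1.89, 1.84 and 1.38 kb. Adipor2, an adiponectin receptor, rose by 2.44 ± 0.26. Lep, leptin, and Cfd, adipsin, had no peak in any of the 6 libraries.

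**Figure D4:**
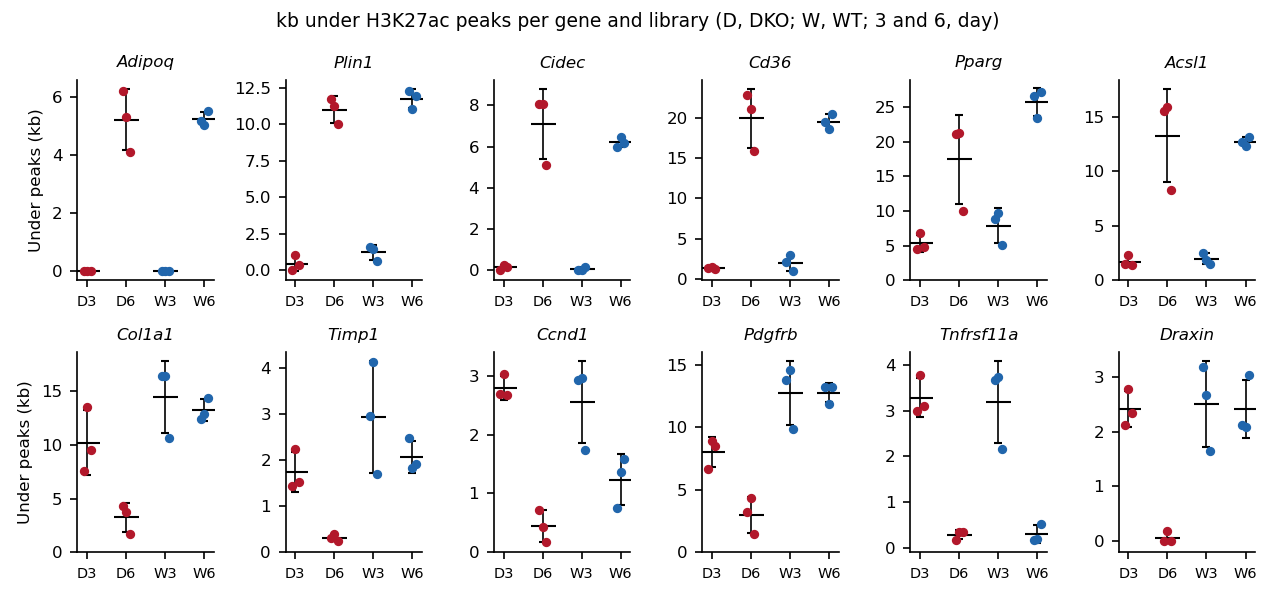
Length under H3K27ac peaks (kb, y axis) at 12 genes in the DKO (D, red) and WT (W, blue) libraries of days 3 and 6. Points are libraries, and bars the mean and SD of 3. Adipoq has no peak at day 3 in either genotype, whereas Draxin keeps its peaks at day 6 in WT but not in DKO libraries.

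Among the regulators of adipogenesis a minority rose. Of 19 tested, 5 rose and none fell (26.3% against 4.44% of all genes, median 0.37). The count was 9 without DKO day 6 replicate 3, 3 without DKO day 3 replicate 1 or DKO day 6 replicate 1 or 2, and 2 with only 250 bp either side of each summit. Pparg, the master regulator of the adipocyte, had 4.51, 6.77 and 4.79 kb at day 3 and 21.1, 21.2 and 10.01 kb at day 6 (1.56 ± 0.33, adjusted p = 0.021). This call was lost, at adjusted p values of 0.0521 to 0.0891, when DKO day 3 replicate 1 or 3 or DKO day 6 replicate 1 or 2 was omitted. Its 8 gained regions, none of which was called at day 0 in either genotype, included the one near the downstream start printed above, with fold enrichments of 12.1, 8.65 and 7.51 at day 6. That region was called in 3 of 3 WT libraries at day 3, when no DKO library called it.

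Mlxipl, the carbohydrate response factor ChREBP (2.46 ± 0.20), Zfp423, a zinc finger factor of preadipocytes (2.29 ± 0.30), and Stat5a, a signal transducer of growth hormone (1.10 ± 0.24), rose as well. Zfp423 had 0.223, 0.953 and 0.204 kb in DKO and 2.26, 2.64 and 1.60 kb in WT libraries at day 3, and 4.79, 4.26 and 2.92 kb against 4.26, 4.48 and 5.38 kb at day 6. The genotypes were thus apart at day 3 and overlapped at day 6, but the difference of the changes (1.31 ± 0.38) had an adjusted p of 0.191. Cebpa (0.23), Cebpb (0.20) and Cebpd (−0.03) did not pass, and Ebf1, an early B cell factor also active in adipocytes, held 13 gained regions in a 391 kb gene while its kb overlapped between days (0.42 ± 0.34).

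Genes tied to brown and beige fat moved in part. Of 12 tested members 7 rose and none fell (58.3%, median 1.29), while without DKO day 6 replicate 1 or 2 it was 4 of 10 (median 0.656 and 0.731) and with only 250 bp either side of each summit 3 of 14. Ppara, a fatty acid sensing receptor, had 0.193, 0.207 and 0.456 kb at day 3 and 2.99, 3.70 and 2.18 kb at day 6 (2.13 ± 0.21, adjusted p = 0.00089). Prdm16, which drives brown fat fate, had 0, 0.487 and 0.208 kb and then 1.42, 1.998 and 1.15 kb (1.5 ± 0.28, adjusted p = 0.0115), and Ppargc1b, a co-activator of mitochondrial genes, rose by 1.69 ± 0.24 with 7 gained regions. Elovl3, a fatty acid elongase of brown fat, had no peak at day 3 and 1.82, 1.61 and 0.343 kb at day 6, and the WT day 6 libraries had 0, 0 and 0.558 kb. Ucp1, the uncoupling protein of brown fat, had no peak in any of these 12 libraries, and Cidea and Dio2 were too low to test. Of 19 oxidation and mitochondrial genes 6 rose and none fell (31.6% against 4.44% of all genes, median 0.56). They were led by Cs, citrate synthase (1.59 ± 0.25), and Acadl, a long-chain dehydrogenase (1.35 ± 0.26). Their count was 14 without DKO day 6 replicate 3, but 3, 2 and 1 without DKO day 3 replicate 2, 1 and 3, 2 without DKO day 6 replicate 1, and 0 when only 250 bp either side of each summit was counted.

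**Figure D5:**
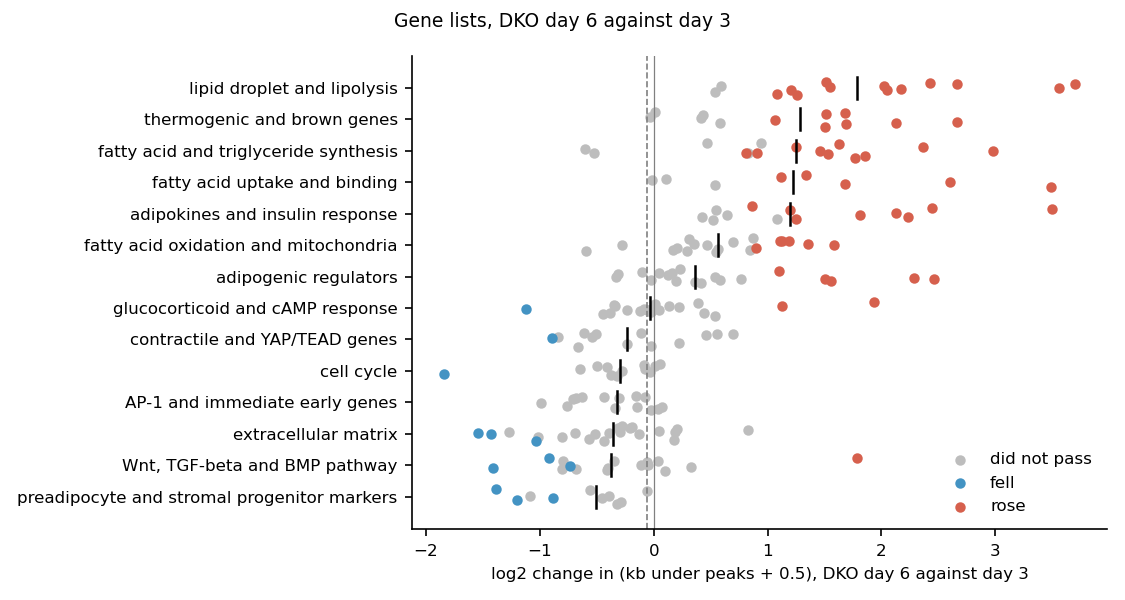
Change in kb under peaks from day 3 to day 6 in DKO cells, as log2 of (kb + 0.5), for each tested gene (points) of 14 lists, ordered by the median (black line). Red and blue points rose or fell in the limma test, grey points did not pass, and the dashed line is the median of all genes (−0.06). The lipid droplet list has the highest median, at 1.78.

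On the lists of the preadipocyte state few genes fell in the gene fit as reported, which did not centre the libraries. Of 22 tested matrix genes 3 fell and none rose (13.6% against 5.03% of all genes, median −0.36), although 12 of 24 members held 36 lost regions. Col1a1, the main chain of type I collagen, had 7.55, 13.5 and 9.53 kb at day 3 and 4.28, 3.78 and 1.73 kb at day 6 (−1.54 ± 0.34, adjusted p = 0.023). Timp1, a metalloproteinase inhibitor, had 1.45, 2.24 and 1.53 kb and then 0.318, 0.408 and 0.246 kb (−1.43 ± 0.19, adjusted p = 0.00253, or −0.74, not passing, when the upstream 5 kb was left out). Bgn, biglycan, fell by 1.03 ± 0.23. The groups did not overlap in any of the 3. The call of Col1a1 was lost without DKO day 3 replicate 2 or 3 (adjusted p = 0.0718 and 0.0668) and that of Bgn without DKO day 3 replicate 1 or 2 (highest adjusted p = 0.0775), whereas Timp1 kept it in every omission. Without DKO day 3 replicate 2 the list held 1 gene that fell, and without DKO day 6 replicate 3 it held 5. With only 250 bp either side of each summit 1 of 23 fell, and with the 20000 peaks of highest −log10 q 5 of 19. Once the libraries were centred on their median, 10 of 22 fell and 1 rose. Under that setting 1730 of all 11349 genes fell and 1394 rose. Fbn1, fibrillin of the elastic microfibril, held 14 of the 36 lost regions, and its 61.2, 91.1 and 69.1 kb at day 3 and 39.98, 41.1 and 16.04 kb at day 6 did not pass the test (−1.27 ± 0.40, adjusted p = 0.0892).

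The matrix regions lost in DKO cells were mostly not lost elsewhere. Of the 36, 32 were called in 3 of 3 WT day 6 libraries, 28 in all 6 WT libraries of days 3 and 6, and 26 again in 3 of 3 DKO day 9 libraries. For lost regions as a whole the same counts were 1951 (46.8%), 1318 (31.6%) and 2006 (48.1%) of 4169. All 4 lost regions of Col1a1 were called in every WT library of all 4 days, and Fbn1 held 12 of the 1318 regions called in all 6 WT libraries, more than any other gene. In WT cells Col1a1 had 16.4, 16.4 and 10.6 kb at day 3 and 12.4, 12.8 and 14.4 kb at day 6, which overlapped. The difference between the DKO and WT changes of Col1a1 (−1.44 ± 0.43) did not pass, at an adjusted p of 0.195.

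Of 10 tested preadipocyte and progenitor genes 3 fell and none rose (30% against 5.03% of all genes, median −0.51). With only 250 bp either side of each summit 0 of 13 fell, and with the 20000 peaks of highest −log10 q 0 of 6. Centring the libraries on their median gave 5 of 10 that fell. Pdgfrb, a growth factor receptor of mural and progenitor cells, had 6.67, 8.93 and 8.54 kb at day 3 and 3.21, 4.31 and 1.43 kb at day 6 (−1.38 ± 0.33, adjusted p = 0.0326). Icam1, an adhesion molecule of committed preadipocytes, fell by 1.2 ± 0.26 and Sfrp2, a secreted Wnt modulator, by 0.88 ± 0.21. Over the omissions of single libraries 0 to 4 members fell: all 3 calls were lost without DKO day 3 replicate 2 or 3 or DKO day 6 replicate 1, and that of Pdgfrb also without DKO day 3 replicate 1 (highest adjusted p 0.103 for Pdgfrb, 0.0859 for Icam1 and 0.119 for Sfrp2). Pdgfra, a receptor that marks fat progenitors, kept most of its peaks (8.90, 10.5 and 8.88 kb, then 7.63, 7.39 and 6.23 kb, adjusted p = 0.343).

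Among Wnt, TGF-β and BMP pathway genes 3 of 16 fell and 1 rose (18.75% and 6.25% against 5.03% and 4.44% of all genes, median −0.37). With only 250 bp either side of each summit 0 of 16 fell, and with the 20000 peaks of highest −log10 q 4 of 10. Centring the libraries on their median gave 7 of 16 that fell and 1 that rose. The secreted Wnt inhibitor Sfrp1 had 7.40, 12.9 and 7.60 kb at day 3 and 3.02, 4.73 and 1.96 kb at day 6 (−1.42 ± 0.33, adjusted p = 0.0291), and 4 lost regions. The ligands Tgfb1 (−0.74 ± 0.17) and Inhba, the activin A subunit (−0.92 ± 0.22), fell too, whereas Ltbp2, a microfibril protein of the latent TGF-β binding family, rose by 1.78 ± 0.31. Omitting any 1 library other than DKO day 6 replicate 2 or 3 left no gene of this list that fell (highest adjusted p 0.0871 for Sfrp1, 0.104 for Tgfb1 and 0.13 for Inhba). Of the cell cycle genes 1 of 12 fell, 8.33% against 5.03% of all genes. This gene, Ccnd1, cyclin D1, had 2.69, 3.03 and 2.66 kb and then 0.722, 0.428 and 0.181 kb (−1.84 ± 0.21, adjusted p = 0.00172), a call kept in every omission of 1 library. Its region at the start, with the steroid receptor letters shown above, was called in 3 of 3 WT libraries at day 3, in none at WT day 6 and again in 3 of 3 DKO day 9 libraries.

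No AP-1 or immediate early gene passed the gene test in either direction (limma, 0 of 14, median −0.32, 5 at an unadjusted p under 0.05). This count depended on the setting: 5 of 14 fell with libraries centred on their median. The 20000 peaks of highest −log10 q gave 2 of 12 that fell. Runx1 and Fosl2 held 7 and 3 lost regions, so 14.3% of this list held a lost region against 13.0% of all genes with any region. Fosl2, the AP-1 subunit FRA2, had 14.2, 16.4 and 15.5 kb at day 3 and 9.52, 11.6 and 7.45 kb at day 6 (−0.68 ± 0.25, adjusted p = 0.133). Its groups did not overlap, as held for 2011 genes with lower values at day 6 (17.7% of those tested). Of 20 glucocorticoid and cAMP response genes 2 rose and 1 fell (10% and 5% against 4.44% and 5.03% of all genes, median −0.03). Pde3b, the phosphodiesterase through which insulin restrains lipolysis (1.94 ± 0.24), and Lcn2, lipocalin 2 (1.13 ± 0.23), rose, and Pde4b, a cAMP phosphodiesterase, fell by 1.12 ± 0.28. Fkbp5 (−0.04) and Per1 (−0.12), both induced by glucocorticoids, did not pass. Acta2, smooth muscle actin (−0.89 ± 0.24), was the 1 gene to fall of 13 contractile and YAP/TEAD genes (7.69% against 5.03% of all genes), and none rose. Centring the libraries on their median gave 4 of these 13 that fell and 2 that rose.

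The 8 genes with the lowest adjusted p among those that fell included several of myeloid cells. Tnfrsf11a, the receptor RANK, had 2.99, 3.78 and 3.10 kb at day 3 and 0.182, 0.345 and 0.344 kb at day 6 (−2.26 ± 0.16, adjusted p = 0.000247). Lcp1, an actin-bundling protein of leukocytes, had 5.63, 7.57 and 5.50 kb and then 1.19, 0.612 and 0.443 kb (−2.46 ± 0.24, adjusted p = 0.000851). Ms4a7, a macrophage membrane protein, fell by 1.97 ± 0.19 and Slc37a2, a sugar phosphate transporter of macrophages, by 2.19 ± 0.17. Bank1, a B cell scaffold, Mctp2, Fam78a and Draxin made up the rest. Of the 8 that rose with the lowest adjusted p, Adipoq, Cidec and Cd36 are described above, and the others were Nat8l, which makes N-acetylaspartate, Trarg1, a regulator of GLUT4 traffic, Fam83a, Tmem266 and Fabp12, next to Fabp4 on chromosome 3.

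Markers of other cell types moved with the step. The summed kb of 9 immune markers was 21.0 to 30.5 at DKO day 3 and 6.501 to 14.5 at day 6, and 14.5 to 24.2 and then 11.6 to 12.6 in WT cells. Of these Ptprc, Cd68, Adgre1, Csf1r, Cd14, Lyz2 and Itgam were tested and Itgam fell (−1.57 ± 0.33, median of the 7 −1.10, with 0 to 4 of the 7 falling over the omissions of single libraries, 4 without DKO day 6 replicate 3 and 0 without DKO day 3 replicate 2 or 3), whereas the lymphocyte genes Cd3e and Cd79a were at 0 at day 6. Centring the libraries on their median gave 5 of the 7 tested immune markers that fell. Of the 4 lost regions at the immune markers, all were called in 3 of 3 DKO day 0 libraries, none in 3 of 3 WT day 6 libraries and 3 in no DKO day 9 library. The part of fewer myeloid cells in the falls listed above was not tested. The sum of 6 preadipocyte markers was 20.9 to 27.8 and then 11.01 to 16.7 kb in DKO cells but 25.3 to 36.5 and 36.3 to 37.2 kb in WT cells. That of 6 adipocyte markers was 10.2 to 17.99 and then 46.0 to 62.1 kb in DKO cells, and all 6 rose, so the defining markers of the labelled lineage were present at day 6. In the 6 DKO libraries endothelial markers summed to 4.22 kb or less, glial markers to 1.695 kb or less and skeletal muscle markers to 0. Of the epithelial markers Epcam, Krt8 and Krt18 were at 0, while Cdh1 brought the sum to 0.659 kb or less. In WT libraries the endothelial sum reached 7.16 kb at day 3 and 6.31 kb at day 6, and the skeletal muscle sum 0.185 kb at day 6.

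At kept regions the level of acetylation was compared as the highest fold enrichment over background in each region, on the log2 scale and centred on the median of each library. Of 24954 regions 2445 were higher (9.80%) and 1718 lower (6.88%) at day 6 (limma, adjusted p under 0.05), and 69.6% of the higher and 55.4% of the lower regions lay at promoters against 63.9% of all. Without centring the split was 893 higher and 1305 lower, so the balance of directions is set by that step. A region in an intron of Fgfrl1, a receptor of the fibroblast growth factor family (chr5:108696316-108696810), had fold enrichments of 2.96, 5.59 and 3.10 at day 3 and 20.2, 21.3 and 15.2 at day 6 (2.42 ± 0.22, adjusted p = 5.7e-07). The region that spans the start of the perilipin Plin4 (chr17:56106446-56113248) also stood in the window of the perilipin Plin5. It had 5.01, 5.49 and 4.51 and then 19.3, 18.7 and 15.1 (1.91 ± 0.20, adjusted p = 5e-06). Regions in Elmod3, near a start of Ephx2, a lipid epoxide hydrolase, and 227 kb from Zeb1 rose by 1.86 to 1.91.

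On the other side, the promoter region of Galnt10, a mucin-type glycosyltransferase (chr11:57643929-57645421), had 28.4, 29.4 and 22.9 at day 3 and 9.66, 11.3 and 8.35 at day 6 (−1.38 ± 0.17, adjusted p = 3.4e-05). The promoter of Zmiz1, a transcriptional co-regulator, fell by 1.44 ± 0.19 and that of Pold4, a DNA polymerase subunit, by 1.35 ± 0.19. The groups did not overlap at any of these regions. Among the kept regions of the gene lists, 7 of 13 at uptake and binding genes, 9 of 22 at lipid droplet genes and 8 of 18 at brown fat genes were higher and none lower, while 10 of 57 at Wnt, TGF-β and BMP genes were lower and 1 higher. The AP-1 genes had 6 higher and 6 lower of 43, the contractile genes 3 and 2 of 41, the glucocorticoid and cAMP genes 9 and 7 of 125, and the synthesis genes 9 and 3 of 30. At matrix genes 8 of 89 kept regions were lower and 1 higher, near the shares of all kept regions for the lower direction.

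Whether DKO and WT cells changed unequally between days 3 and 6 was tested as a difference of the changes over the 12 libraries. The difference is signed, DKO change minus WT change, and does not compare the sizes of the changes. Per gene, none of 12017 had a more positive and 1 (0.00832%) a more negative change in DKO than in WT cells (limma, adjusted p under 0.05). At unadjusted p under 0.05 there were 20 more positive and 1976 more negative. The median difference over all genes was −0.32 (log2), which goes with the peak totals: DKO lists covered 4.13 Mb less and WT lists 12.9 Mb more at day 6 than at day 3. The difference of these changes, −17.0 Mb, had an exact permutation p of 0.265. At the 22080 regions called in all 12 libraries, 890 (4.03%) had a more positive and 700 (3.17%) a more negative change in DKO cells. For the lipid droplet list the medians of the DKO and WT changes were 1.78 and 1.74, for adipokines and the insulin response 1.2 and 1.21, and for the matrix list −0.36 and 0.29.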

How the data were processed

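H3K27ac chromatin was precipitated with the antibody ab4729 and sequenced in reads of 75 bp. Per the labels and the study's methods, the authors trimmed reads with cutadapt 1.18, aligned them with BWA (version 07.17 in the submitters' processing notes) to mm10 and called peaks in each library with MACS2 2.1.1.20160309. The control library used for each list is not given in the sources used here, and the 16 input libraries were not analysed here. The deposited lists give for each peak the fold enrichment over background (a ratio), the −log10 p-value and −log10 q-value, an integer score and the summit offset. The lowest −log10 q was 2.00 to 2.05. Background depth per library was recovered from fold and p.

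Regions were merged at 1 bp of overlap, and genes took regions from 5 kb upstream to the gene end. Tests on whole tables used limma 3.58.1 (R 4.3.3), with trend and robust settings and Benjamini-Hochberg adjustment: log2 fold enrichment at kept regions, centred on each library's median, and log2(kb + 0.5) for genes with a mean of at least 0.5 kb. Single values were compared by exact permutation of libraries (two-sided, 20 relabellings, or 400 for the difference between genotypes). Motifs were sought within 100 bp of summits. Each fit was tested on simulated data, where 48% of 100 genes changed by 1 and 86% of 100 changed by 2 on the log2 scale were recovered between days 3 and 6 in DKO cells among 11349 genes. The named regions were the 5 strongest gained and lost and the 5 kept regions with the lowest adjusted p in each direction. The named genes were the 8 with the lowest adjusted p in each direction and members of the gene lists. The members and lists were chosen with earlier results of these data known. Alternatives covered peak thresholds, windows, pseudocount, filter, centring, each library left out and a replicate block. The precision of values is limited by 3 libraries a group. The values of 2 items withheld for evaluation are not reported here. Plots used matplotlib 3.10.9.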

Additional observations from a re-analysis of the deposited data

Results flagged for a closer look

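The changes from day 3 to day 6 differed between DKO and WT cells at regions called in all 12 libraries, by a test of the difference of the changes (limma, adjusted p under 0.05). In 890 regions the DKO change was more positive than the WT change and in 700 more negative. Without centring the libraries the split was 150 more positive and 1240 more negative, so the balance of directions rests on the centring. The WT day 3 group holds the shallow library, and its part in these differences was not tested beyond its omission.

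Among the regions with a more positive DKO change, the promoter region of Slc29a2, a nucleoside transporter, had the largest difference of those named, 2.13 ± 0.28 (log2, SE, adjusted p = 3.3e-05). Its fold enrichments were 10.1, 10.2 and 10.1 at DKO day 3 and 16.6, 16.2 and 12.3 at day 6, and 24.7, 22.6 and 14.1 and then 9.63, 7.98 and 6.93 in WT cells. The groups did not overlap within either genotype, and the directions were opposite. Regions at Akap1, a mitochondrial anchor protein (1.85), Bax, an apoptosis regulator next to Ftl1 (1.67), and Rps14, a ribosomal protein (1.46), also had a more positive DKO change. At Akap1 the WT libraries of the days overlapped.

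Among those with a more negative DKO change, a region in the window of Sftpc, next to Bmp1, differed by −2.46 ± 0.33. Its fold enrichments were 11.5, 11.9 and 14.0 and then 2.69, 6.73 and 3.50 in DKO cells, and 7.98, 8.78 and 5.98 and then 13.2, 16.6 and 18.9 in WT cells. Regions at Lmnb1, lamin B1 (−2.40), Sept1 and Zfp553 (−2.13), Ubb, polyubiquitin (−1.83), and Rack1, a ribosomal scaffold (−1.58), also had a more negative DKO change.

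Draxin, a secreted Wnt and netrin antagonist, was the 1 gene whose kb under peaks changed unequally (−2.37 ± 0.30, adjusted p = 0.0383). DKO libraries had 2.13, 2.78 and 2.35 kb at day 3 and 0, 0.184 and 0 kb at day 6, while WT libraries had 3.19, 2.67 and 1.65 kb and then 2.13, 2.09 and 3.04 kb. DKO day 9 libraries had 3.09 ± 0.17 kb (SD, n = 3), so the peaks were present again. The difference did not pass with peaks of −log10 q of at least 5, with fixed windows around summits, with the replicate block, or without any 1 of the DKO day 3 or WT day 6 libraries or DKO day 6 replicate 3 (adjusted p from 0.0556 to 0.178). Over all alternatives the adjusted p lay between 0.00104 and 0.178.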

How the results depend on the processing

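With 3 libraries a group, single calls depended on single libraries. Of 81 called single genes, 47 kept the call in every omission of 1 library and 34 lost it in at least 1. Besides those given above, Acadl, Lipe and Itgam lost it without DKO day 3 replicate 3, Acadl and Lipe without replicate 1 of that day and Itgam without replicate 2. Elovl3, Pde4b and Acta2 lost it without any 1 of the DKO day 3 libraries, and Stat5a and Lcn2 without replicate 1 or 2 of them. Lipe, Itgam, Pde4b, Acta2, Stat5a and Lcn2 also lost it without DKO day 6 replicate 1, Stat5a without DKO day 6 replicate 2 and Acta2 without DKO day 6 replicate 3 (highest adjusted p 0.0652 for Acadl, 0.081 for Lipe, 0.0654 for Itgam, 0.0662 for Elovl3, 0.142 for Pde4b, 0.196 for Acta2, 0.0811 for Stat5a and 0.0593 for Lcn2). The cause was not tested. Over all single-gene and single-region alternatives no direction reversed.

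Without DKO day 6 replicate 3 the day 6 minus day 3 difference reversed for peaks (1212), Mb (0.916) and promoter share (−0.718 percentage points). Over the omissions these ranged from −12497 to 1212 peaks, −6.89 to 0.916 Mb and −0.718 to 4.86 points. Gained regions numbered 3259 to 7422, the highest without DKO day 6 replicate 3. Lost regions numbered 4395 to 8118, more than 1.5 times the count without DKO day 3 replicate 1 (8118) or 3 (6998) or DKO day 6 replicate 2 (6484), as fewer libraries have to meet the rule. At kept regions 1620 to 2227 were higher, the lowest without DKO day 6 replicate 2, and 1059 to 1416 lower, with 1142, 1059 and 1111 without DKO day 3 replicates 1, 2 and 3. Genes that rose numbered 282 to 1248, with 288 and 282 without DKO day 3 replicates 1 and 3, 283, 328 and 1248 without DKO day 6 replicates 1, 2 and 3. Genes that fell numbered 179 to 731, with 334, 179 and 223 without DKO day 3 replicates 1, 2 and 3. Regions with a more negative DKO change numbered 458 to 671, with 458, 466 and 466 without WT day 6 replicates 1, 2 and 3. Genes with such a change numbered 0 to 25, with 25 and 11 without DKO day 6 replicates 2 and 1. There were 8 and 3 such genes without WT day 3 replicates 2 and 3. There were 0 without any 1 of the DKO day 3 or WT day 6 libraries or DKO day 6 replicate 3.

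With the 20000 peaks of highest −log10 q in each library there were 1314 gained, 1055 lost and 10092 kept regions. Of those gained, 76.8% were called in DKO day 9 and 54.3% in WT day 9 libraries. Of those lost, 69.3% were called in DKO day 0, 61.2% in WT day 0, 37.25% in DKO day 9 and 44.7% in WT day 9 libraries. Genes numbered 351 that fell, 3 with a more positive and 29 with a more negative DKO change, and the genotype difference in promoter share reversed (−0.643). Without centring, 893 kept regions were higher and 1305 lower, and 150 regions had a more positive and 1240 a more negative DKO change. With libraries centred, 1394 genes rose and 1730 fell, and 35 had a more positive and 192 a more negative DKO change. With a pseudocount of 0.1 kb 351 genes fell and 5 had a more negative DKO change, with no filter 2 did and at −log10 q of at least 5, 10 did. With 250 bp either side of summits 218 genes rose, 125 fell and 3 had a more negative DKO change, and with gene bodies alone 378 fell. The PPAR/RXR share difference reversed with 50 bp windows (0.001667 percentage points). The cause of these shifts was not tested.

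Replicate numbers are shared between days, but same-numbered libraries did not deviate together (correlations −0.006, 0.008 and 0.005), so the pairing rests on a number alone. With the replicate block 637 genes rose, 969 fell and 0 differed between genotypes (limma). With it 2403 kept regions were higher and 1684 lower, and 904 and 715 regions had a more positive and a more negative DKO change.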

Other observations

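Beyond the lists, genes with many gained or lost regions were picked by that count and by their function after the values were seen, so their changes in kb are a description. Pnpla8, a phospholipase of peroxisomes and mitochondria, held 9 gained regions and had 0.605, 1.64 and 1.22 kb under peaks at DKO day 3 and 9.62, 11.3 and 6.55 kb at day 6. Scp2, a peroxisomal sterol carrier and thiolase, held 9 and had 3.73, 4.98 and 4.20 kb and then 21.7, 24.1 and 14.0 kb. Apmap, an adipocyte plasma membrane protein, held 8 in a gene of 25.5 kb and had 1.2, 1.13 and 1.14 kb and then 9.10, 9.58 and 6.83 kb. The groups did not overlap in any of the 3. Fgfr2 held 14 gained regions, but its gene model in the annotation spans 2961 kb and takes in other genes, and its change did not pass (0.30 ± 0.33). Lamb3, a laminin chain, and Slc24a3, a cation exchanger, held 9 gained regions each and rose by 1.67 ± 0.27 and 2.397 ± 0.37 (log2, SE). Fabp12 held 10 and Gm20532, which overlaps Agpat2, held 9.

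On the lost side Lhfp held 14 regions and had 16.3, 27.3 and 19.1 kb at day 3 and 9.41, 8.09 and 2.78 kb at day 6. Ror1, a Wnt5a receptor, held 9 lost regions and had 27.6, 43.9 and 34.0 kb and then 12.6, 14.7 and 3.96 kb. Bicc1, Foxp1 and Babam2 held 12, 11 and 10 lost regions, and their changes of −1.27, −0.86 and −1.37 did not pass the test. Lhfp and Ror1 each held 6 lost regions that were called in all 6 WT libraries of days 3 and 6. Lost regions absent from every WT day 6 and DKO day 9 library were most frequent at Tns3, with 4, followed by Armc9, Entpd1, Gramd1b, Hpcal1, Ikzf1, Il21r, March1, Raet1e, Ubxn11 and Vrk3, with 3 each.

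Of 14 tested genes that the study itself names, 4 rose (28.6% against 4.44% of all genes) and 1 fell (7.14% against 5.03%). The study chose them on these samples, so the count is not independent evidence of direction.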
